A study of Mus musculus with 9 samples.

Results

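Cholinergic motor neurons send their axons out of the spinal cord to muscle and to autonomic ganglia, and signal with acetylcholine. The 7 genes described here were chosen by name as markers of these cells: *Chat*, *Slc18a3*, *Slc5a7*, *Ache*, *Isl1*, *Mnx1* and *Chodl*. They are 7 of the 40879 gene symbols counted. RNA came from whole spinal cords of wild-type (WT) mice in 3 groups of 3 libraries each: mice with experimental autoimmune encephalomyelitis (EAE) given GV1001, mice with EAE given vehicle, and naive mice. EAE is an immune-mediated inflammation of the brain and cord used as a model of multiple sclerosis, and GV1001 is a peptide derived from human telomerase. The strain, age, sex, dose, way of inducing EAE and day of sampling were not in the labels. Nor do the labels say whether the libraries of a group came from separate animals, so p-values measure the spread between these libraries, which may be technical.

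Acetylcholine is made from choline and acetyl-CoA by choline acetyltransferase (*Chat*). It is loaded into synaptic vesicles by the vesicular acetylcholine transporter (*Slc18a3*) and broken down in the synaptic cleft by acetylcholinesterase (*Ache*). The freed choline is taken back up by the high-affinity choline transporter (*Slc5a7*). *Isl1* and *Mnx1* encode homeodomain transcription factors that specify motor neurons in the embryo, and *Chodl* encodes chondrolectin, a membrane protein that marks fast motor neurons in mice. None of these genes is exclusive to motor neurons: cholinergic interneurons share the transmitter genes, *Ache* is also made by other neurons and by muscle, and *Isl1* is also expressed in sensory neurons of the dorsal root ganglia.

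The libraries were made with a 3′ end kit, which gives about 1 read per transcript, and held 5247246 to 6174870 counts each. Levels are given as CPM, a gene's count scaled to the total of its library, without division by gene length. Of the 7 genes, 6 passed the filter on low counts and were tested among 15351 genes. *Mnx1* had no count in any of the 9 libraries, which allows at most 0.486 to 0.572 CPM (3 counts per library; counting error only). The other 6 genes were detected in every library. Detection in whole cord RNA does not show which cells held the transcripts, and whether these were motor neurons was not tested.

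Several libraries stood apart within their groups in markers of other cells. Transcripts of 9 genes of dorsal root ganglion neurons summed to 169 and 67.2 CPM in GV1001 replicates 2 and 3 and to 197 CPM in naive replicate 2, against 12.3 to 19.1 CPM in the other libraries. All 9 of these genes were detected in those 3 libraries, while 3 to 5 of them were at 0 in each of the others. *Runx1*, a further gene of the list, was left out of this sum. It measured 5.67, 23.6 and 9.88 CPM with GV1001, 32.3, 5.34 and 18.7 CPM with vehicle, and 2.32, 19.0 and 4.15 CPM in naive cords. With *Runx1* included, those 3 libraries summed to 193, 77.1 and 216 CPM, against 17.95 to 47.05 CPM in the others, a narrower gap. Skeletal muscle transcripts (18 genes, of which 2 to 4 were at 0 in each library) ranged from 479 to 5037 CPM in GV1001 libraries, 29.6 to 603 CPM in vehicle libraries and 34.2 to 281 CPM in naive libraries. Transcripts of 14 microglial and phagocyte genes summed to 598 to 2627 CPM with GV1001, 1192 to 7713 CPM with vehicle and 464 to 561 CPM in naive cords, highest in vehicle replicate 1. The 14 pan-neuronal genes summed to 11210 to 11760 CPM with GV1001, 8726 to 11770 CPM with vehicle and 12510 to 12730 CPM in naive cords, lowest in the same vehicle replicate 1. CPM is a share of the library total. In whole cord, therefore, fewer cells of a type, less RNA per cell and more RNA from other cells cannot be told apart.

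*Chat*, the enzyme that defines a cholinergic cell, was detected in every library, and its groups could not be separated. It measured 18.9, 21.2 and 24.8 CPM in GV1001 libraries, 14.4, 22.1 and 16.6 CPM in vehicle libraries, and 18.7, 21.2 and 20.2 CPM in naive libraries. GV1001 replicate 3 was the highest of the 9 and vehicle replicate 1 the lowest, and the ranges of all 3 groups overlapped. These levels rest on 80 to 153 counts per library, so counting error alone is sizeable: the Wilson 95% interval of the lowest library ran from 11.5 to 17.9 CPM. The log2 fold change was −0.22 ± 0.18 (SE) for vehicle against naive (edgeR quasi-likelihood test, adjusted p = 0.566), 0.30 ± 0.18 for GV1001 against vehicle (adjusted p = 0.631) and 0.08 ± 0.18 for GV1001 against naive (adjusted p = 0.950).

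*Slc18a3* lies inside the first intron of *Chat* on the same strand, an arrangement known as the cholinergic gene locus. The start sites of the pair are 1059 bases apart in the RefSeq annotation of GRCm38.p6. Because the genes overlap, the assignment of reads between them is uncertain. The stretches before their start sites are shown because the genes share a locus, and that of *Isl1* because its level varied most between libraries. Each lies within the 250 bases before the RefSeq start on the minus strand, with annotated exon sequence removed, at chr14:32465990-32466159 for *Chat*, chr14:32464851-32465100 for *Slc18a3* and chr13:116309690-116309938 for *Isl1* (GRCm38.p6; the counts were made on GRCm39). Capitals mark the core of the cAMP response element, TGACGT or its reverse complement ACGTCA.
Chat: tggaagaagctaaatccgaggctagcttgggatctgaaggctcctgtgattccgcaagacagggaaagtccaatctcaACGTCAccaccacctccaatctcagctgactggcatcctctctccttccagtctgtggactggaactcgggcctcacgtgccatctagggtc
Slc18a3: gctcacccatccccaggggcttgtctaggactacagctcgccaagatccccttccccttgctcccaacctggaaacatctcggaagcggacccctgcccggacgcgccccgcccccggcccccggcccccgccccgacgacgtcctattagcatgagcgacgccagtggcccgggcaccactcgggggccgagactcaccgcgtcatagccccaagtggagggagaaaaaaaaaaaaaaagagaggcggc
Isl1: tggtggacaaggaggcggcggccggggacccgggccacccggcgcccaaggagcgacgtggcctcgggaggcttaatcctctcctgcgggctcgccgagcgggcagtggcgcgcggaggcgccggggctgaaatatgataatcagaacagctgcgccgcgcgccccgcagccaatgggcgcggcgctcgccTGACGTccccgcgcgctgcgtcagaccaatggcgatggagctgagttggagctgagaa
Among the 7 genes, all of which had a promoter entry, TGACGT was found on either strand in *Chat* (172 bases before the start) and *Isl1* (59 bases before), and in 6.47% of 32851 mouse promoters of 250 bases. The homeodomain core TAATTA, which reads the same on both strands, was in none of the 7 and in 4.84% of all promoters. GC content was 54.7% in the *Chat* stretch, 66% in that of *Slc18a3* and 71.1% in that of *Isl1*.

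*Slc18a3* gave 41.8, 35.4 and 47.3 CPM in GV1001 libraries, 38.4, 54.7 and 41.8 CPM in vehicle libraries, and 51.5, 43.2 and 46.4 CPM in naive libraries. Its highest library was vehicle replicate 2 and its lowest GV1001 replicate 2, and the 3 groups overlapped. The log2 fold change was −0.10 ± 0.16 for vehicle against naive (adjusted p = 0.790), −0.11 ± 0.16 for GV1001 against vehicle (adjusted p = 0.850) and −0.21 ± 0.16 for GV1001 against naive (adjusted p = 0.820; edgeR). *Chat* and *Slc18a3* were not among the genes nearest to each other across libraries. Their centred log2 CPM differed by a root mean square (RMS) of 0.221 over the 9 libraries, which placed *Slc18a3* 2723rd among 15350 genes in nearness to *Chat*. The values rest on 80 to 153 counts per library for *Chat* and 201 to 292 for *Slc18a3*. The part of counting error in this distance was not tested.

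*Slc5a7*, the transporter that recovers choline at the terminal, varied widely within both EAE groups. It measured 88.2, 51.0 and 64.1 CPM in GV1001 libraries, 41.7, 57.9 and 76.0 CPM in vehicle libraries, and 78.9, 66.3 and 76.7 CPM in naive libraries. The highest library was GV1001 replicate 1 and the lowest vehicle replicate 1, and both EAE groups overlapped the naive range. Means were 67.8 ± 18.9 CPM with GV1001, 58.5 ± 17.2 CPM with vehicle and 74.0 ± 6.74 CPM in naive cords (SD, n = 3 each). The log2 fold change was −0.37 ± 0.22 for vehicle against naive, with a 95% interval of −0.86 to 0.11 (edgeR, adjusted p = 0.397). It was 0.22 ± 0.22 for GV1001 against vehicle (adjusted p = 0.780) and −0.16 ± 0.22 for GV1001 against naive (adjusted p = 0.911).

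*Ache*, which encodes the enzyme that ends cholinergic transmission, was the only one of the 6 tested genes whose vehicle libraries all lay to one side of another group. It measured 66.3, 68.9 and 77.9 CPM in GV1001 libraries, 41.3, 57.6 and 63.5 CPM in vehicle libraries, and 77.7, 66.0 and 67.3 CPM in naive libraries. All 3 vehicle libraries were below all GV1001 and all naive libraries, and the GV1001 and naive ranges overlapped. The gap was narrow on both sides: the highest vehicle library was 63.5 CPM, while the lowest GV1001 library was 66.3 CPM and the lowest naive library 66.0 CPM. Means were 71.1 ± 6.07 CPM with GV1001, 54.1 ± 11.5 CPM with vehicle and 70.3 ± 6.42 CPM in naive cords (SD, n = 3 each).

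For *Ache*, the log2 fold change was −0.41 ± 0.14 for vehicle against naive, with a 95% interval of −0.73 to −0.09, an unadjusted p of 0.0161 and an adjusted p of 0.147 (edgeR). For GV1001 against vehicle it was 0.40 ± 0.14, with an interval of 0.08 to 0.72, an unadjusted p of 0.0184 and an adjusted p of 0.528. Neither passed the threshold of 0.05 once adjusted over all genes. GV1001 against naive gave −0.01 ± 0.14 (interval −0.33 to 0.30, adjusted p = 0.992). Without vehicle replicate 1, the values were −0.27 (adjusted p = 0.327) against naive and 0.26 for GV1001 against vehicle. The pan-neuronal sum was also lowest in that library.

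*Ache* is also a gene of muscle, so its values were set against the muscle transcripts. The library with most muscle transcripts, GV1001 replicate 1 (5037 CPM), held 66.3 CPM of *Ache*, the lowest of its group, and naive replicate 1, with 34.2 CPM of muscle transcripts, held 77.7 CPM. The library with the fewest, vehicle replicate 3 (29.6 CPM), held 63.5 CPM, below every GV1001 and naive library. On average, GV1001 libraries held more of both muscle transcripts and *Ache* than vehicle libraries, and the part of muscle RNA in the *Ache* values was not tested. *Ufsp1*, the gene next to *Ache* downstream on the same strand, measured 13.8, 18.2 and 16.0 CPM with GV1001, 11.5, 17.5 and 19.7 CPM with vehicle, and 19.4, 19.3 and 17.3 CPM in naive cords. Its vehicle libraries overlapped both other groups.

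**Figure D1:**
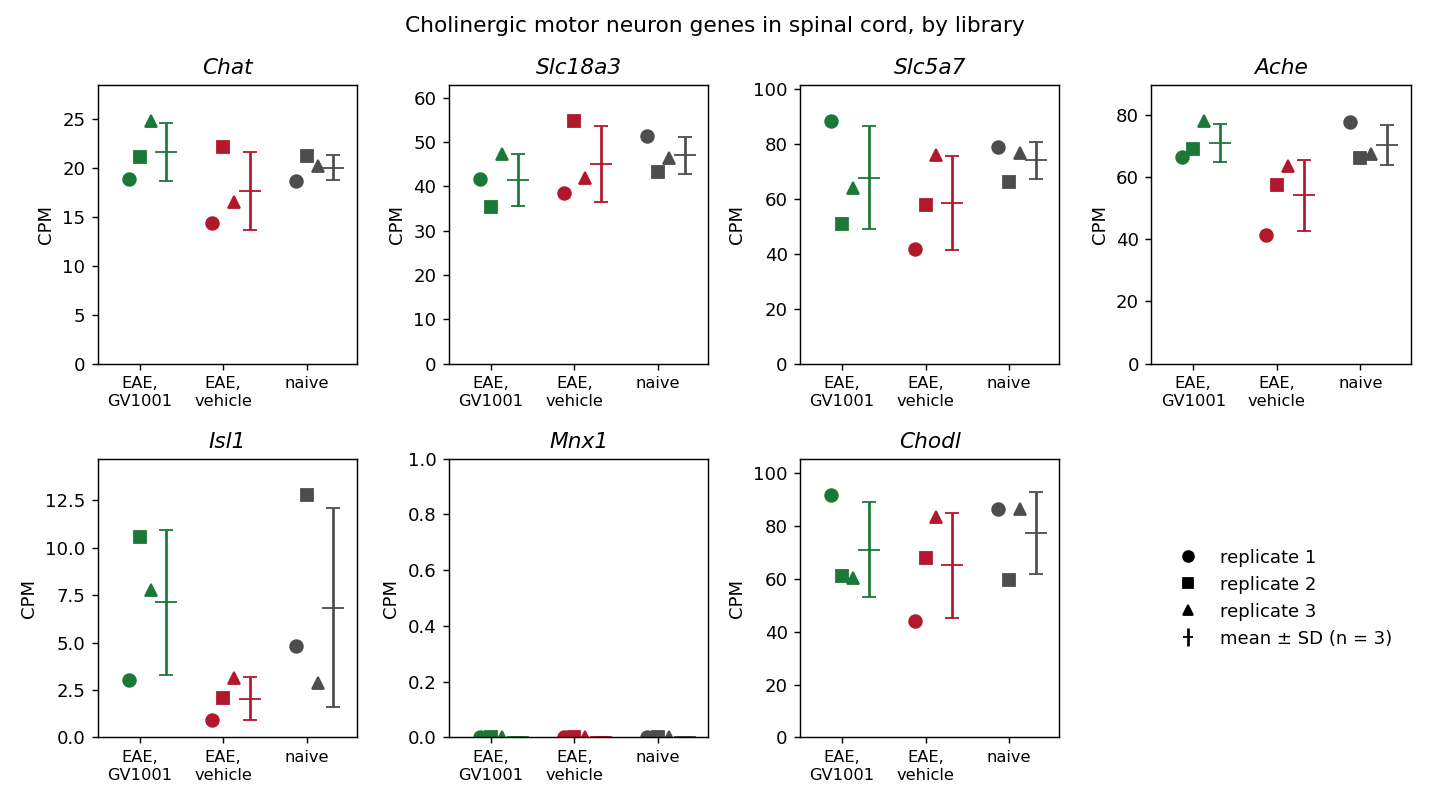
Levels of the 7 cholinergic motor neuron genes in each of the 9 libraries. Each panel is a gene, the vertical axis is CPM from 0, points are libraries with a marker shape per replicate, and the bar beside each group is its mean ± SD (n = 3). All vehicle points of *Ache* lie below the other groups, the *Isl1* points are spread over 0.898 to 12.8 CPM, and *Mnx1* is at 0 throughout.

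*Isl1*, the LIM homeodomain factor of motor and sensory neurons, had the fewest counts of the detected genes and varied most. It measured 3.02, 10.6 and 7.77 CPM in GV1001 libraries (16, 60 and 48 counts), 0.898, 2.10 and 3.14 CPM in vehicle libraries (5, 11 and 18 counts), and 4.81, 12.8 and 2.89 CPM in naive libraries (27, 74 and 16 counts). Both the GV1001 and the naive group overlapped the vehicle group, whose highest library exceeded the lowest library of each. Means were 7.13 ± 3.82 CPM with GV1001, 2.04 ± 1.12 CPM with vehicle and 6.82 ± 5.24 CPM in naive cords (SD, n = 3 each). The SD of the naive group was nearly as large as its mean.

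For *Isl1*, the log2 fold change was −1.76 ± 0.68 for vehicle against naive (95% interval −3.28 to −0.25, unadjusted p = 0.0263, adjusted p = 0.184; edgeR). It was 1.80 ± 0.68 for GV1001 against vehicle (interval 0.30 to 3.30, unadjusted p = 0.0228, adjusted p = 0.528) and 0.04 ± 0.54 for GV1001 against naive (adjusted p = 0.992). The 3 libraries with the highest *Isl1* were GV1001 replicates 2 and 3 and naive replicate 2, the same 3 that held dorsal root ganglion transcripts. *Scn10a*, a sodium channel of pain-sensing neurons, had 179 and 51 counts in GV1001 replicates 2 and 3 and 238 counts in naive replicate 2, against 0 to 2 counts in the other 6 libraries. *Avil*, a sensory neuron gene, had 201 and 112 counts in those GV1001 libraries and 238 in that naive library, against 2 to 9 counts elsewhere. Without these 3 libraries, a choice made after their values were seen, the *Isl1* difference was −0.94 for vehicle against naive (adjusted p = 0.515) and 0.55 for GV1001 against vehicle. The last value rests on GV1001 replicate 1 as the only library of its group, so no p is given for it. Leaving out naive replicate 2 alone gave −0.94 for vehicle against naive (adjusted p = 0.543). The 3 libraries with ganglion transcripts are the highest in *Isl1*, so leaving them out was bound to bring vehicle nearer to both other groups. The part of ganglion RNA in the *Isl1* values was not tested.

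**Figure D2:**
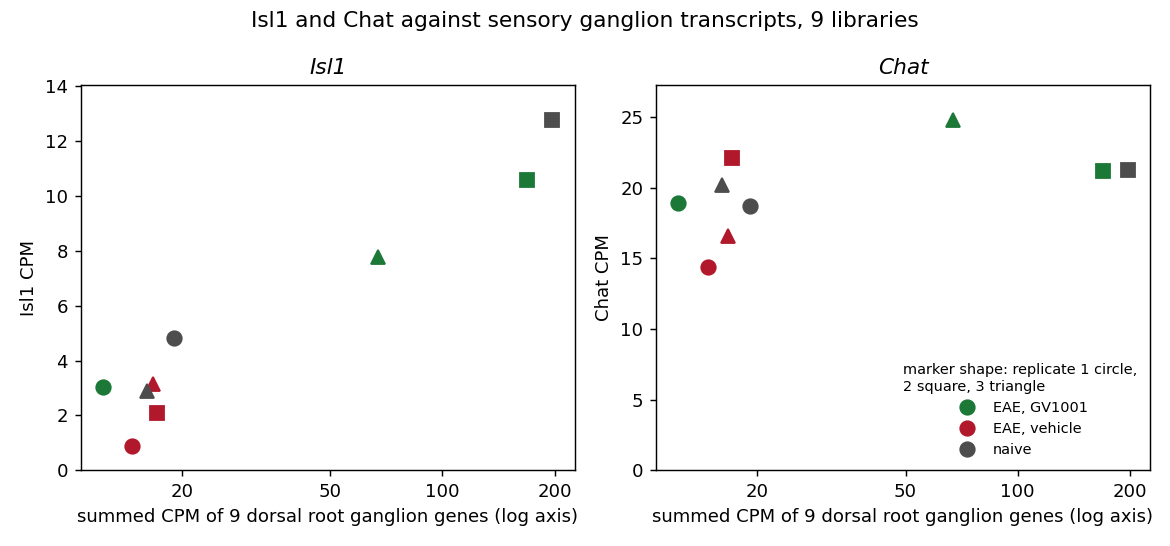
*Isl1* (left) and *Chat* (right) against the summed level of 9 dorsal root ganglion genes (*Runx1* left out) in each library. The horizontal axis is summed CPM on a log scale, the vertical axis is CPM of the gene, colours are groups and marker shapes are replicates. The 3 libraries at 67.2 CPM or more of ganglion transcripts are the 3 highest for *Isl1*, and hold 21.2 to 24.8 CPM of *Chat* beside 14.4 to 22.1 CPM in the others.

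*Isl2*, the close relative of *Isl1* that is also used by motor and sensory neurons, had the same 3 highest libraries. It measured 5.10, 23.1 and 7.61 CPM with GV1001, 3.05, 2.86 and 2.96 CPM with vehicle, and 2.14, 24.5 and 3.79 CPM in naive cords. GV1001 replicate 2 and naive replicate 2 were far above the rest, and the 3 vehicle libraries lay within the naive range.

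*Chodl*, the marker of fast motor neurons, measured 91.6, 61.0 and 60.4 CPM in GV1001 libraries, 44.0, 67.7 and 83.5 CPM in vehicle libraries, and 86.2, 59.6 and 86.2 CPM in naive libraries. GV1001 replicate 1 was the highest and vehicle replicate 1 the lowest, and the groups overlapped. The log2 fold change was −0.29 ± 0.24 for vehicle against naive (adjusted p = 0.557), 0.13 ± 0.24 for GV1001 against vehicle (adjusted p = 0.881) and −0.15 ± 0.24 for GV1001 against naive (adjusted p = 0.921; edgeR).

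In vehicle against naive cords, all 6 tested genes had a negative log2 fold change when scaled to all genes (3 of them, *Chat*, *Slc18a3* and *Chodl*, a positive one relative to pan-neuronal counts), and none passed the threshold. Of the 15351 genes, edgeR called 0.0195% (3 genes, all higher in vehicle) and DESeq2 called 6.52% of those it tested, and neither tool called any of the 6. At an unadjusted p under 0.05, 2 of the 6 (*Ache* and *Isl1*) were lower in vehicle and none was higher. Of all genes, 19.3% passed that level, 8.06% lower and 11.3% higher. *Ache* alone had vehicle libraries that all lay below the naive ones, a pattern held by 9.5% of all genes, and none of the 6 lay wholly above, as 13.6% of all genes did. The median log2 fold change of the 6 was −0.33, beside −0.0047 over all genes, of which 50.5% were below 0.

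The size of the vehicle against naive differences of the 6 genes, though not their direction, rested partly on vehicle replicate 1. This library was the lowest of the 9 in 5 of the 6 genes, all but *Slc18a3*, where it was the second lowest. The 7 genes together summed to 181 CPM there, against 262 and 285 CPM in the other vehicle libraries and 269 to 318 CPM in naive libraries. Without it, the vehicle against naive log2 fold change was −0.11 for *Chat*, −0.02 for *Slc18a3*, −0.20 for *Slc5a7*, −0.27 for *Ache*, −1.43 for *Isl1* and −0.09 for *Chodl*. All 6 stayed below 0, each nearer to 0 than with that library.

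In GV1001 against vehicle cords, 5 of the 6 genes had a positive log2 fold change and *Slc18a3* a negative one, as did *Chodl* relative to pan-neuronal counts. EdgeR called none of the 6 and 0% of all genes, and DESeq2 called 0.0569% of the genes it tested and none of the 6. At an unadjusted p under 0.05, *Ache* and *Isl1* were higher with GV1001, 2 of 6, and none was lower. Of all genes, 9.08% passed that level, 4.57% higher and 4.51% lower. *Ache* was the gene whose GV1001 libraries all lay above the vehicle ones, as did those of 5.44% of all genes, while none of the 6 lay wholly below, as 5.03% of all genes did. The median of the 6 was 0.26, beside −0.0089 over all genes, of which 51.4% were below 0. This comparison and that of vehicle with naive share the vehicle libraries, so opposite signs in the pair are not independent of each other.

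In GV1001 against naive cords, none of the 6 genes passed the threshold or had an unadjusted p under 0.05, against 0% and 7.31% of all genes by edgeR (4.35% higher and 2.96% lower at the unadjusted level). DESeq2 called 0.237% of the genes it tested and none of the 6. All 6 overlapped between the groups, whereas 10.2% of all genes lay wholly above the naive libraries with GV1001 and 6.7% wholly below. Of the 6, 4 had a negative log2 fold change, against 49.6% of all genes, and the median was −0.0823 beside 0.00187 over all genes. Relative to pan-neuronal counts, *Slc5a7*, *Ache* and *Chodl* moved from below to above 0.

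In vehicle against naive, all 14 pan-neuronal genes had a negative log2 fold change, against 50.5% of all genes. Of the 14, 10 were lower at an unadjusted p under 0.05 (edgeR), against 8.06% of all genes, and none was called. Of 6 genes of excitatory and inhibitory neurons, 5 were tested and none was called, with 4 below 0 and a median of −0.24. The cholinergic genes were therefore also expressed per 10000 counts of the 14 pan-neuronal genes. On this scale *Ache* averaged 61.8 ± 4.31 with GV1001, 53.8 ± 9.81 with vehicle and 55.7 ± 5.61 in naive cords (SD, n = 3 each). *Chat* averaged 18.8 ± 2.32 with GV1001, 17.4 ± 1.22 with vehicle and 15.9 ± 0.867 in naive cords. *Slc5a7* averaged 58.9 ± 16.1 with GV1001, 58.3 ± 17.0 with vehicle and 58.6 ± 5.75 in naive cords. Relative to neuronal counts, therefore, *Slc5a7* differed between group means by far less than the spread within a group.

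The vehicle against naive log2 fold change on this scale was −0.05 for *Ache*, against −0.41 when scaled to all genes. It was above 0 for *Chat* (0.14), *Slc18a3* (0.26, adjusted p = 0.179) and *Chodl* (0.08), which were below 0 when scaled to all genes. *Isl1* kept most of its difference, at −1.41. For GV1001 against vehicle, *Slc18a3* was −0.30 (unadjusted p = 0.0472, adjusted p = 0.338), *Ache* 0.20 and *Isl1* 1.61 (unadjusted p = 0.0425, adjusted p = 0.333). *Slc18a3* averaged 36.0 ± 4.30 with GV1001, 44.5 ± 1.82 with vehicle and 37.2 ± 3.67 in naive cords per 10000 neuronal counts. This scaling moved the median of all genes to 0.364 for vehicle against naive, −0.214 for GV1001 against vehicle and 0.167 for GV1001 against naive. The values are to be read relative to those shifts, whereas the p-values on this scale test a difference from 0.

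**Figure D3:**
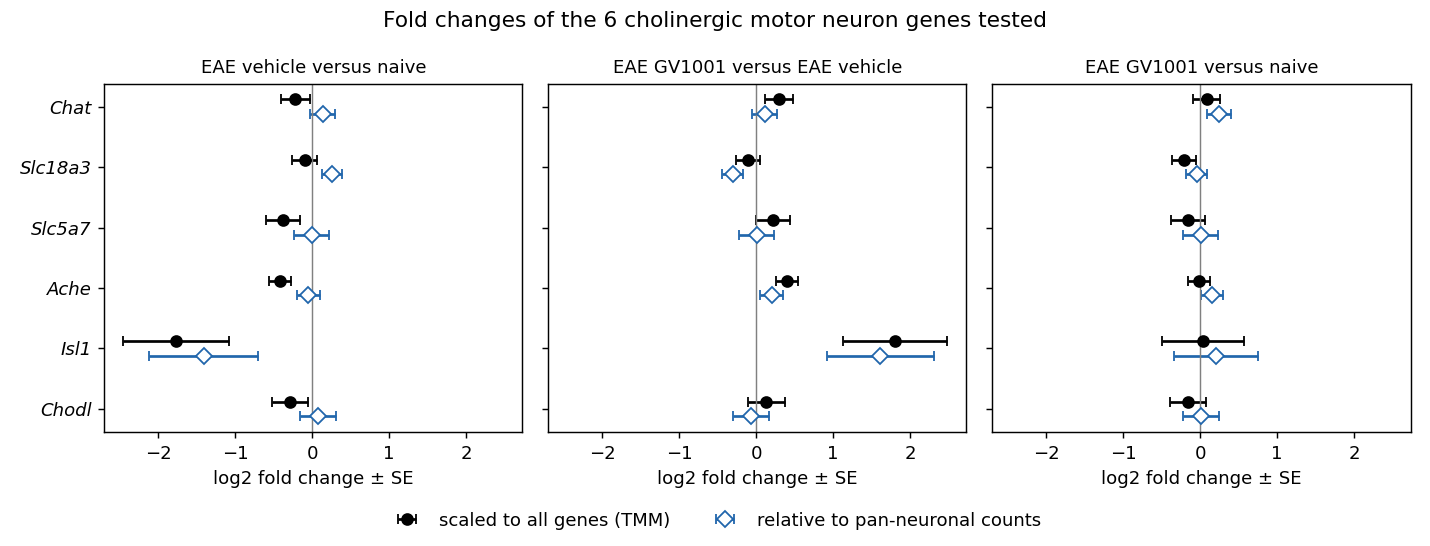
Log2 fold changes of the 6 tested genes in the 3 comparisons, with genes in rows. Filled circles are edgeR estimates scaled to all genes (TMM), open diamonds are those relative to pan-neuronal counts, bars are SE and the vertical line is at 0. In vehicle against naive the circles lie between −1.76 and −0.10, while the diamonds of *Chat*, *Slc18a3* and *Chodl* lie above 0. *Isl1* has the widest bars.

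Across the 9 libraries the closest pair among the genes was *Slc5a7* and *Chodl*, with an RMS difference of 0.128 in centred log2 CPM. *Chodl* was the 4th nearest of 15350 genes to *Slc5a7*, and *Slc5a7* the 7th nearest to *Chodl*. Both were lowest in vehicle replicate 1 and highest in GV1001 replicate 1. This order was not particular to cholinergic genes. The summed genes of excitatory and inhibitory neurons were also lowest in vehicle replicate 1 (397 CPM) and highest in GV1001 replicate 1 (739 CPM). The pan-neuronal sum shared the lowest library (8726 CPM) but was highest in naive replicate 2 (12730 CPM). The other pairs among *Chat*, *Slc18a3*, *Slc5a7*, *Ache* and *Chodl* lay 0.191 to 0.371 apart. *Isl1* was 0.858 to 1.07 from each of the other 5.

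**Figure D4:**
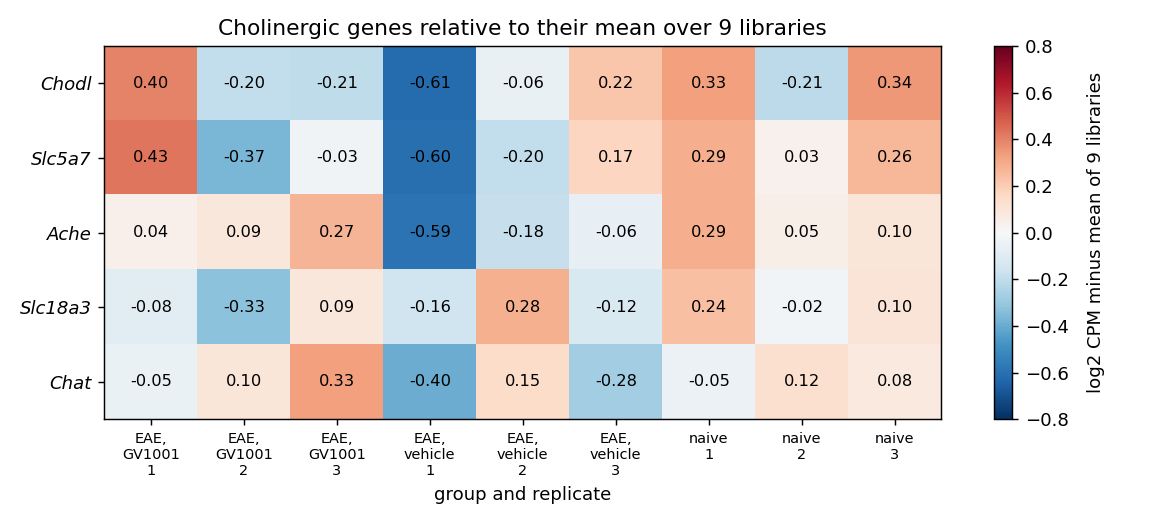
Centred log2 CPM (prior count 2) of *Chodl*, *Slc5a7*, *Ache*, *Slc18a3* and *Chat*, with genes in rows and the 9 libraries in columns; *Isl1*, with its wider range, is left out. Colours and printed values give the difference of each library from the gene's mean over the 9 libraries. *Chodl* and *Slc5a7* share their lowest library (−0.61 and −0.60 in vehicle replicate 1) and their highest (0.40 and 0.43 in GV1001 replicate 1).

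The genes with the most similar pattern over the 9 libraries were listed for each of the 6, as a description. They are the nearest of 15350 genes, so small distances can arise without any link between the genes. The part of counting error in these distances was not tested, and *Chat* had only 80 to 153 counts per library. Nearest to *Chat* were *Syt5*, a synaptotagmin of secretory vesicles (RMS 0.0298), *Ahsa1*, an Hsp90 co-chaperone (0.0763), and *Stmn3*, a neuronal microtubule regulator (0.0861). For *Slc18a3* they were *Tro* (0.058), *Ogfod1* (0.0628) and *Sall2* (0.0661), and for *Slc5a7* they were *Gpr158* (0.0764), *Sepsecs* (0.119) and *Acyp2* (0.122). *Ache* lay nearest to *Slc35f1* (0.075), *Dusp8* (0.0797) and *Dbn1*, the actin-binding protein drebrin of dendritic spines (0.0809). *Chodl* lay nearest to *Kdm4c* (0.103), *Cdh10* (0.108) and *Noa1* (0.117). For *Isl1*, with a larger spread of its own (SD 1.02), they were *Calca*, the gene of the neuropeptide CGRP (0.293), *Rem2* (0.334) and *Mdfic2* (0.341).

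No receptor for acetylcholine was called by edgeR in any comparison. EdgeR called 0.0195% of all genes in vehicle against naive and 0% in the other comparisons. The receptor genes were not examined with DESeq2. Of 17 receptor and receptor-modulator genes, 7 passed the filter on low counts and were tested. In vehicle against naive, 4 of the 7 were lower at an unadjusted p under 0.05 and none higher, against 8.06% of all genes lower and 11.3% higher. All 7 were below 0 with a median of −0.47, against 50.5% of all genes. *Chrna4*, a subunit of neuronal nicotinic receptors, measured 32.3, 34.2 and 50.9 CPM with GV1001, 32.7, 30.5 and 28.9 CPM with vehicle, and 43.5, 48.9 and 43.8 CPM in naive cords. All 3 vehicle libraries were below the naive ones (log2 fold change −0.59 ± 0.17, adjusted p = 0.102; edgeR). In GV1001 against vehicle, 4 of the 7 were higher at an unadjusted p under 0.05 and none lower, against 4.57% of all genes higher and 4.51% lower. All 7 were above 0 with a median of 0.37, where 51.4% of all genes were below 0. *Chrm2*, a muscarinic receptor that acts on motor neuron and terminal excitability, measured 92.8, 85.3 and 93.9 CPM with GV1001, 53.0, 84.2 and 73.9 CPM with vehicle, and 106, 86.0 and 86.2 CPM in naive cords. Its vehicle libraries all lay below both other groups, at −0.43 ± 0.15 against naive (adjusted p = 0.145) and 0.37 ± 0.15 for GV1001 against vehicle (adjusted p = 0.539). In the same comparison of vehicle with naive, all 14 pan-neuronal genes were below 0 too (median −0.37). The part of neuronal RNA as a whole in the receptor values was not tested.

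Among 11 genes of choline and acetylcholine metabolism, all tested, none was called by edgeR in any comparison, against 0% to 0.0195% of all genes. In vehicle against naive 5 were lower at an unadjusted p under 0.05 and none higher, against 8.06% and 11.3% of all genes. Of the 11, 6 were below 0 and 5 above, with a median of −0.10. *Pcyt1b*, an enzyme of phosphatidylcholine synthesis, measured 35.5, 31.2 and 35.6 CPM with GV1001, 30.5, 40.2 and 29.3 CPM with vehicle, and 50.4, 44.2 and 49.8 CPM in naive cords. Both EAE groups lay wholly below the naive group, at −0.52 ± 0.14 for GV1001 against naive (adjusted p = 0.640) and −0.56 ± 0.14 for vehicle against naive (adjusted p = 0.0794). *Prima1*, which anchors acetylcholinesterase in the neuronal membrane, measured 17.4, 22.7 and 18.0 CPM with GV1001, 16.5, 15.1 and 22.5 CPM with vehicle, and 25.7, 24.7 and 24.0 CPM in naive cords. Unlike *Ache*, it was below the naive range in all GV1001 libraries as well (−0.49 ± 0.18 for vehicle against naive, adjusted p = 0.159, and −0.38 ± 0.17 for GV1001 against naive, adjusted p = 0.687). Whether *Ache* and *Prima1* differ in their response was not tested.

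Of 19 further genes of motor neuron identity and subtype, 18 were tested. None was called by edgeR in any comparison, against 0% to 0.0195% of all genes. In vehicle against naive 2 of the 18 were lower at an unadjusted p under 0.05 and none higher, a share near the 8.06% of all genes lower at that level. Of the 18, 12 were below 0 and 6 above, with a median of −0.21. *Esrrg*, a nuclear receptor of gamma motor neurons that many other neurons also express, measured 47.0, 51.5 and 52.8 CPM with GV1001, 40.6, 51.7 and 38.5 CPM with vehicle, and 64.0, 55.8 and 58.3 CPM in naive cords. All 6 EAE libraries lay below the 3 naive ones (−0.48 ± 0.13 for vehicle against naive, adjusted p = 0.0901, and −0.26 ± 0.13 for GV1001 against naive, adjusted p = 0.711). Of all genes, 9.5% lay wholly below the naive libraries with vehicle and 6.7% with GV1001. In GV1001 against vehicle, 1 gene of the list was higher and 1 lower at an unadjusted p under 0.05, with a median of 0.08.

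The 8 genes of the response to nerve injury included *Atf3*, a transcription factor induced in neurons whose axons are damaged and also in other stressed cells. *Atf3* measured 2.08, 5.11 and 4.05 CPM with GV1001, 18.9, 9.34 and 13.4 CPM with vehicle, and 0.713, 1.04 and 0.902 CPM in naive cords, with no overlap between any pair of groups. It rose in vehicle against naive (log2 fold change 3.92 ± 0.47, adjusted p = 0.0257; edgeR), and was the only gene of the lists described here that passed the threshold. No gene was called in that comparison, *Atf3* included, when any of the naive libraries or GV1001 replicate 3 was left out, when the 3 libraries with ganglion transcripts were left out together, with the replicate block, or with limma-voom. GV1001 against vehicle gave −1.87 ± 0.35 for *Atf3* (adjusted p = 0.528). In vehicle replicate 1, where *Atf3* was highest, 5 of the 6 cholinergic genes were at their lowest and microglial and phagocyte transcripts at their highest. The list as a whole did not share that order: its 8 genes summed to 394 CPM there, against 477 and 536 CPM in the other vehicle libraries and 406 to 417 CPM in naive cords. *Sprr1a* measured 0.180 CPM there, against 15.3 and 27.4 CPM in the other vehicle libraries. Which cells held the *Atf3* transcripts was not tested. Of the other 7 genes of the list, 2 (*Sprr1a* and *Jun*) were higher in vehicle than in naive cords at an unadjusted p under 0.05 (edgeR). Of all genes, 11.3% were higher at that level.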

How the data were processed

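Whole spinal cord RNA from 9 libraries was analysed. The table the authors deposited gives, for every gene symbol, the raw read count in each library. Per the labels' protocols, RNA was extracted with TRIzol or a Maxwell RSC kit (which for which sample is not given) and libraries were made with QuantSeq 3′ mRNA-Seq V2 FWD. Per the submitters' processing notes, FastQC, STAR, HTSeq and GRCm39 were used. The versions, annotation and strand setting are not given in the sources used here.

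Groups came from the labels. Genes were filtered with filterByExpr (minimum count 10), normalised by TMM and tested with edgeR 4.0.16 (quasi-likelihood, all 9 libraries, 1 coefficient per group) in R 4.3.3, with Benjamini-Hochberg adjustment over 15351 genes and a threshold of 0.05. The fit was checked on simulated data. DESeq2 1.42.0, limma-voom 3.58.1, other filters, scalings and fits, a replicate block and leaving out each library were alternatives. Likeness used log2 CPM (prior count 2). Intervals are Wilson at 95% and floors 3 counts. Both cover counting error only. Totals of 5247246 to 6174870 counts limit precision for low genes such as *Isl1*. Promoters came from RefSeq (GRCm38.p6), with exons on the same strand from GENCODE removed, and figures from matplotlib 3.10.9 in Python 3.11.15.

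The genes and lists were chosen with earlier results of these data known. Named were all 7 genes, for each list described up to 4 tested genes with the smallest p in a comparison, and the 3 most similar genes of each tested gene, predicted genes passed over. *Ufsp1* and the gene set of the last section were added after their values were seen. Sequences of proteins were not used here.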

Additional observations from a re-analysis of the deposited data

How the results depend on the processing

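Of the 6 tested genes, none was called under any alternative or with any single library left out. The smallest adjusted p was 0.0783 (*Isl1*, vehicle against naive, DESeq2). Of the fold changes under the alternatives, 300 kept their direction and side of the threshold and 24 reversed. The number of genes called was less stable. For vehicle against naive it was 3 in the fit reported, 1105 with DESeq2, 0 with limma-voom, 543 with no filter, 14 with a fit of only those groups, 0 with the replicate block, 0 without the 3 libraries with ganglion transcripts, and 0 to 1652 with single libraries left out. For GV1001 against vehicle it was 0, 12 with DESeq2 and 0 to 8 with single libraries left out. For GV1001 against naive it was 0, 45 with DESeq2, 1 with the older quasi-likelihood form, 1 with no filter, 5 with the fit of only those groups, and 0 to 3 with single libraries left out. The causes were not tested.

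Relative to pan-neuronal counts, vehicle against naive reversed for *Chat* (0.14), *Slc18a3* (0.26) and *Chodl* (0.0776), GV1001 against vehicle for *Chodl* (−0.0663), and GV1001 against naive for *Slc5a7* (0.0068), *Ache* (0.15) and *Chodl* (0.0112). Without the 3 libraries with ganglion transcripts, which leaves GV1001 replicate 1 as the only library of its group against 2 naive ones, the value of GV1001 against naive changed sign for *Chat* (−0.0824), *Slc5a7* (0.14), *Isl1* (−0.39) and *Chodl* (0.0476). With single libraries left out, GV1001 against vehicle ran from −0.0916 to 0.33 for *Chodl*, −0.22 to 0.0363 for *Slc18a3* and −0.0157 to 0.43 for *Slc5a7*. GV1001 against naive then ran from −0.0882 to 0.0641 for *Ache*, −0.0332 to 0.17 for *Chat*, −0.34 to 0.86 for *Isl1* and −0.39 to 0.0149 for *Slc5a7*.

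Of 9 pairs of libraries with the same replicate number, 2 had a correlation of deviations above 0.1, so the numbers were not taken as a pairing. With the replicate block, vehicle against naive gave −0.42 for *Ache* (adjusted p = 0.225) and −1.71 for *Isl1* (adjusted p = 0.185).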

Other observations

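*Hox* genes pattern the cord from neck to tail, with the *Hox10* and *Hox11* groups highest toward its lower end, where the motor neurons of the hindlimb lie. They were looked at after other values had been seen, and are given as values. The *Hox11* genes summed to 21.7, 14.3 and 31.3 CPM in GV1001 libraries, 19.4, 14.9 and 20.7 CPM in vehicle libraries, and 26.4, 0.173 and 17.9 CPM in naive libraries. Naive replicate 2 was far below the other 8. The *Hox10* genes summed to 227, 162 and 199 CPM with GV1001, 150, 195 and 163 CPM with vehicle, and 202, 99.96 and 173 CPM in naive cords, again lowest in naive replicate 2. The 19 *Hox4* to *Hox9* genes summed to 1194, 1048 and 1164 CPM with GV1001, 942, 1312 and 1068 CPM with vehicle, and 1308, 1296 and 1301 CPM in naive cords, where naive replicate 2 lay with its group. In naive replicate 2, *Isl1* was the highest of the 9 libraries, while *Slc18a3*, *Slc5a7*, *Ache* and *Chodl* were the lowest of the naive group. *Chat* went the other way, and was the highest of the naive group there (21.2 CPM, against 18.7 and 20.2 CPM). Whether these levels follow the part of the cord sampled was not tested.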
